A study of Rattus norvegicus with 14 samples.

Results

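Reg3b, Reg3g, Pla2g2a, Slpi, Lcn2, Camp, Nos2, Duox2, Duoxa2 and Pigr encode proteins with which the intestinal epithelium acts on bacteria at its surface or carries immunoglobulin A (IgA) to the lumen. They were chosen by name, and every probe that the array design assigns to one of these 10 gene symbols was taken, out of 26276 gene names on the array. All 10 were present, each with 1 probe printed on 2 spots, and no spot of these probes was saturated or marked as an outlier. The effect of a high-protein diet (HPD) compared with a normal-protein diet (NPD) was examined in isolated rat colonocytes. Male Wistar rats, young animals that all ate a standard rodent diet first, received an NPD (14% of energy from protein) or an isocaloric HPD (55%) for 15 days, with whole milk protein as the protein source and less starch and sucrose in the HPD. Colonocytes, the epithelial cells lining the colon, were detached with EDTA, and their RNA was hybridised to 1-colour Agilent arrays, 1 rat per array and 7 rats per diet. The 7 epithelial markers listed (Epcam, Cdh1, Krt8, Krt18, Krt20, Vil1 and Cdx2) were well above background on every array.

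The colonic epithelium limits bacterial contact by several routes. Reg3b and Reg3g are secreted C-type lectins that act on bacteria close to the mucosa, and their genes are known targets of interleukin 22 acting through the transcription factor STAT3. Duox2 makes hydrogen peroxide at the luminal membrane and needs its partner Duoxa2 to get there, Nos2 makes nitric oxide, and Pigr carries dimeric IgA from the tissue side of the cell to the lumen.

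The probes are 60 bases long, and their positions are those of the array design on the rat build rn4. The position within each transcript was not used here. Sequences are shown for some of the genes, whole for Pla2g2a, Slpi and Pigr and as the first 30 bases for Reg3b and Reg3g. The Reg3b probe spans chr4:112357807-112358789 (plus strand) with a gap, as does the Pigr probe at chr13:43802502-43802936 (plus strand). The Reg3g probe lies at chr4:112418369-112418428 (minus strand), 59579 bases from that of Reg3b. The Pla2g2a probe lies at chr5:157657033-157657092 (plus strand) and the Slpi probe at chr3:155374636-155374695 (minus strand).
Reg3b: cagcttgtcaagatcttctggatttctaag
Reg3g: caatgggaagatcaacaacaacaacaaaaa
Pla2g2a: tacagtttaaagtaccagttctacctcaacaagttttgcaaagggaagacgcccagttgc
Slpi: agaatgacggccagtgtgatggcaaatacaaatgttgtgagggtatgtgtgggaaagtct
Pigr: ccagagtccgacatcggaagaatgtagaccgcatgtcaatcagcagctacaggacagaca
The longest run of bases shared by the Reg3b and Reg3g probes on the same strand was 6 bases. Further probes lie at chr3:11511592-11511651 (Lcn2, minus strand), chr3:109059361-109059420 (Duox2, minus strand), chr3:109081149-109081208 (Duoxa2, plus strand) and chr8:114214914-114214973 (Camp, minus strand), and the Duox2 and Duoxa2 probes are 21728 bases apart on opposite strands.

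The bases upstream of Reg3b and Reg3g are shown because these genes varied together across rats. They are the 250 bases before each transcription start in RefSeq, build GRCr8, at chr4:112419526-112419775 (plus strand) for Reg3b and chr4:112484739-112484988 (minus strand) for Reg3g. Capitals mark matches, on either strand, to TATAAA and to TTCNNNGAA, the core that STAT factors are known to bind.
Reg3b: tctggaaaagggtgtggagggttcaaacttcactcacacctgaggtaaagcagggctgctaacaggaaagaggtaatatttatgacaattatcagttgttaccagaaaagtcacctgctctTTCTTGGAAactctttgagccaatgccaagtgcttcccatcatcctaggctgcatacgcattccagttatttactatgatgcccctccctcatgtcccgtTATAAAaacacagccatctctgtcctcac
Reg3g: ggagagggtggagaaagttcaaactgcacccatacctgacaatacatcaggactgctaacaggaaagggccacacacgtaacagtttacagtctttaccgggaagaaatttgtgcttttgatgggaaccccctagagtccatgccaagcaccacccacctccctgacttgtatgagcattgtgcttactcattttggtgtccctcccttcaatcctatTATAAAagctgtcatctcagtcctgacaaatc
Of 243 aligned bases, 164 (67.5%) were identical between both windows. Each held TATAAA on its own strand, starting 29 bases before the start in Reg3b and 32 bases before it in Reg3g. At any position and on either strand, TATAAA was found in 12.9% of 33469 rat windows of the same length. The share with a match at a like position and strand was not counted. The Reg3b window held 1 TTCNNNGAA match, which is the same site on both strands, starting 129 bases before the start, and these letters were not in the Reg3g window. They occurred in 7.67% of all windows. Of the 7 genes with a window in the table, TATAAA was also found in that of Duox2. The matches describe the sequence only.

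Values are log2 signals relative to the median probe of the same array, so that 0 is the array's median, and they are compared between rats and not between genes. A difference is HPD minus NPD on this log2 scale. At a Benjamini-Hochberg adjusted p below 0.1 in limma over all 30367 probes, 0 of the 10 genes were differentially expressed between diets, against 17 probes (0.056%) of the whole array. At an unadjusted p under 0.05, 1 of 10 passed, Nos2, which was higher, against 11.4% of all probes (5.86% higher and 5.55% lower). The means of 4 genes were higher with the HPD and those of 6 were lower, whereas 64.2% of all probes were higher. The median difference was -0.07 for the 10 genes and 0.11 for all probes. The diets overlapped for all 10 genes, and 0.273% of all probes had no overlap. In this population of detached cells, a change in the share of a cell type and a change in RNA per cell cannot be told apart.

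**Figure D1:**
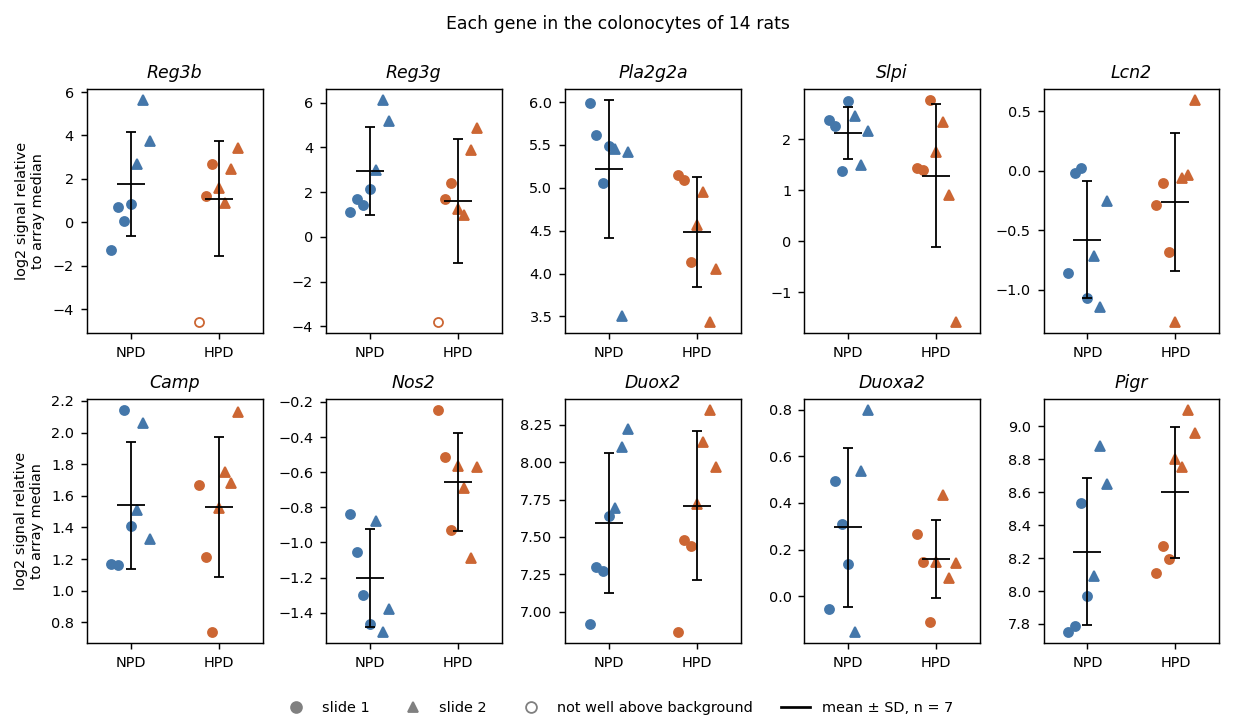
Log2 signal of each gene relative to the array median (vertical axis, its own range in each panel) in 7 NPD and 7 HPD rats, with circles for slide 1, triangles for slide 2 and open symbols where the probe was not well above background. Black bars are the mean and SD; Reg3b and Reg3g spread the most, and 5 of 7 HPD rats exceeded every NPD rat for Nos2.

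Reg3b and Reg3g were the most variable of the 10 genes. In NPD rats, Reg3b ran from -1.27 through a median of 0.85 to 5.63. In HPD rats it ran from -4.58 through 1.60 to 3.41. The lowest value, HPD replicate 1, was not well above background, so it stands for a low signal of unknown size, while the highest values of both diets came from slide 2. The mean was 1.77 ± 2.38 (SD, n = 7) with the NPD and 1.10 ± 2.65 (SD, n = 7) with the HPD. The difference was -0.67 ± 1.21 (SE), with a 95% interval from -3.25 to 1.90 and a limma adjusted p of 0.785. Without HPD replicate 1 it was 0.27 (adjusted p = 0.866) with diet alone in the fit and -0.27 (adjusted p = 0.865) with slide as a block. Within slides, the difference was -0.30 on slide 1, which held that rat, and -1.93 on slide 2.

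Reg3g, on chromosome 4 like Reg3b, ranged from 1.13 through 2.16 to 6.12 in NPD rats. Its HPD values were -3.80 at the lowest, 1.70 at the median and 4.86 at the highest. The same HPD rat was lowest and again not well above background, and 2 of 7 HPD rats lay below every NPD rat. The difference was -1.34 ± 1.15 (SE; 95% interval -3.80 to 1.12, limma adjusted p = 0.573), and -0.44 (adjusted p = 0.766) without HPD replicate 1. It was -1.49 within slide 1 and -2.03 within slide 2. Among 18023 probes well above background on at least 13 arrays, the SD within diets ranked Reg3b at position 2 and Reg3g at position 3, and at positions 10 and 12 without HPD replicate 1. Over the other 13 rats the highest Reg3b signal was 119-fold the lowest, and the highest Reg3g signal was 35.1-fold the lowest. Neither gene therefore had an interval narrow enough to exclude a 2-fold change in either direction.

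Pla2g2a encodes the group IIA secreted phospholipase A2, which degrades phospholipids of bacterial membranes. Its signal ranged from 3.50 through 5.45 to 5.99 in NPD rats and from 3.44 through 4.57 to 5.15 in HPD rats. All 7 HPD rats lay below the NPD mean, yet NPD replicate 6 was nearly as low as the lowest HPD rat. The mean was 5.22 ± 0.81 (SD, n = 7) with the NPD and 4.48 ± 0.64 (SD, n = 7) with the HPD, a difference of -0.73 ± 0.36 (SE), whose 95% interval ran from -1.49 to 0.029. The limma adjusted p was 0.445 and the exact two-sided permutation p was 0.0892. Within slide 1 the difference was -0.74 and within slide 2 it was -0.54.

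Slpi, an inhibitor of neutrophil proteases that also acts on bacteria, ranged from 1.37 through 2.25 to 2.74 in NPD rats. It ranged from -1.58 through 1.43 to 2.76 in HPD rats, with the highest value of all 14 rats and the lowest both in this diet. The difference was -0.84 ± 0.51 (SE; 95% interval -1.93 to 0.26, limma adjusted p = 0.502). Without HPD replicate 7, the lowest rat, it was -0.36. The difference was -0.32 within slide 1 and -1.19 within slide 2, which held that rat.

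Lcn2, which binds bacterial siderophores, and Camp, the cathelicidin, are antimicrobial proteins that neutrophils also make. The Lcn2 signal ranged from -1.15 through -0.72 to 0.03 with the NPD and from -1.27 through -0.10 to 0.59 with the HPD. It differed by 0.32 ± 0.27 (SE; 95% interval -0.26 to 0.89, limma adjusted p = 0.572), and 5 of 7 HPD rats were above the NPD mean. Camp ranged from 1.16 through 1.41 to 2.14 with the NPD and from 0.74 through 1.67 to 2.13 with the HPD. Its difference was -0.010 ± 0.22 (SE; 95% interval -0.47 to 0.45, limma adjusted p = 0.983), and its sign turned under several settings.

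Nos2, the inducible nitric oxide synthase, had the smallest p of the 10 genes. It ranged from -1.51 through -1.30 to -0.84 in NPD rats and from -1.09 through -0.57 to -0.25 in HPD rats. All 7 HPD rats were above the NPD mean and 5 of 7 were above every NPD rat, so that the overlap came from 2 HPD rats. The mean was -1.20 ± 0.28 (SD, n = 7) with the NPD and -0.66 ± 0.28 (SD, n = 7) with the HPD. The difference was 0.55 ± 0.15 (SE), or 1.46-fold, with a 95% interval from 0.22 to 0.87. Its unadjusted limma p was 0.00295, which was at position 181 among all probes, and its adjusted p was 0.417. The exact two-sided permutation p was 0.00583, and 0.00653 when rats were regrouped within slides only. The difference was 0.60 within slide 1 and 0.53 within slide 2. The signal lay below the array median in every rat, although well above background on all 14 arrays. Before centring, it ran from 23.2 to 47.3 with the NPD and from 32.2 to 63.2 with the HPD. The related genes and cell markers described below that were not well above background on any array were all higher with the HPD. Their centred differences ran from 0.05 (Elane) to 0.44 (Csf3r). The median log2 spot signal of the arrays ran from 6.49 to 7.02 with the HPD and from 6.83 to 7.49 with the NPD. Centring therefore raised the HPD values, on average, relative to the NPD values. How much of the Nos2 difference comes from the centring was not tested. Under normexp background correction of the pixel signals the difference was 0.28 (limma adjusted p = 0.0893), a setting that called 16.9% of all probes and 10.8% as higher. In the log2 table that was deposited, 0 of the 10 genes were called, against 0.0681% of its rows. When slide was added there, Nos2 was called with a difference of 0.30 (limma adjusted p = 0.0934), and 10.5% of rows were called, 3.98% as higher. Over 32 alternative settings the adjusted p ran from 0.0893 to 0.868, and the difference was positive in each.

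Duox2 ranged from 6.91 through 7.64 to 8.22 with the NPD and from 6.86 through 7.72 to 8.35 with the HPD. The groups covered nearly the same range, with a difference of 0.12 ± 0.24 (SE; 95% interval -0.40 to 0.64, limma adjusted p = 0.817). With slide in the model it was 0.0092, and the sign turned under several settings. Its maturation factor Duoxa2 ranged from -0.15 through 0.31 to 0.80 with the NPD and from -0.11 through 0.15 to 0.44 with the HPD. It differed by -0.14 ± 0.15 (SE; 95% interval -0.46 to 0.18, limma adjusted p = 0.653). All HPD values of Duoxa2 lay inside the NPD range, 6 of 7 in its part under the NPD mean.

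Pigr, the polymeric immunoglobulin receptor, ranged from 7.75 through 8.09 to 8.88 in NPD rats. It ranged from 8.11 through 8.75 to 9.10 in HPD rats, and 5 of 7 were above the NPD mean. The mean was 8.24 ± 0.45 (SD, n = 7) with the NPD and 8.60 ± 0.40 (SD, n = 7) with the HPD, a difference of 0.36 ± 0.22 (SE; 95% interval -0.10 to 0.82, limma adjusted p = 0.496). With slide as a block the difference was 0.27 (adjusted p = 0.411). For Pigr, Lcn2, Nos2, Duox2, Duoxa2 and Camp, 6 of the 10 genes, the 95% interval excluded a 2-fold change in either direction.

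**Figure D2:**
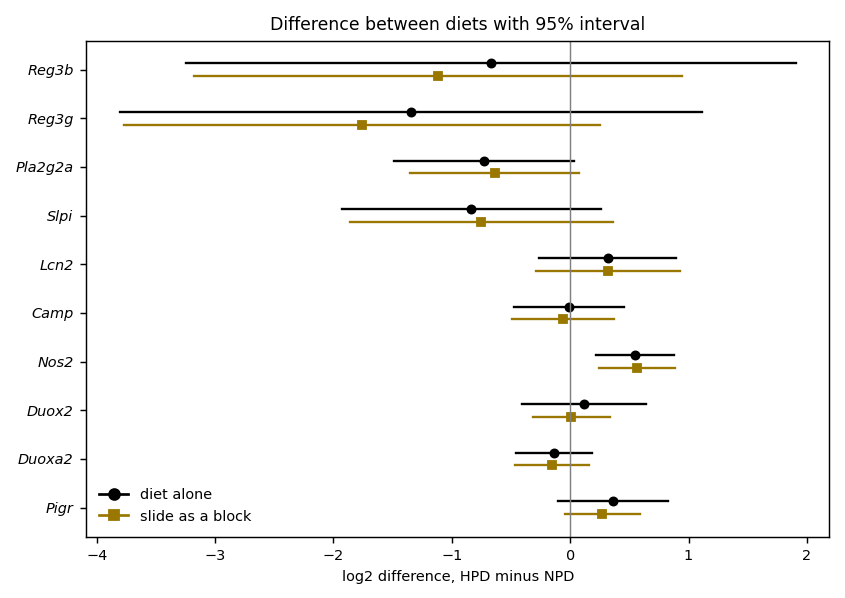
Difference between diets (horizontal axis, log2, HPD minus NPD) for each gene, with points for the estimate and lines for the 95% interval, from limma with diet alone (black circles) and with slide as a block (brown squares). Only the Nos2 intervals exclude 0 (0.22 to 0.87 with diet alone), and those of Reg3b and Reg3g are the widest.

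The arrays lay on 2 slides, slide 1 with 4 NPD and 3 HPD rats and slide 2 with 3 NPD and 4 HPD rats, and each slide was scanned separately. In a limma fit of diet and slide, 4 of the 10 genes differed between slides, a share near the 40.1% of all probes. Reg3b was 3.13 higher on slide 2 (adjusted p = 0.0238) and Reg3g 2.91 higher (adjusted p = 0.0292). Without HPD replicate 1 these differences were 2.27 (adjusted p = 0.0486) and 2.09 (adjusted p = 0.0621), where 33.6% of all probes were called. Pigr was 0.62 higher (adjusted p = 0.00702) and Duox2 0.75 higher (adjusted p = 0.00296) on slide 2. Whether the slides also differ in litter, feeding round or RNA preparation is not stated in the labels, so these cannot be told apart. When slide was added to the model, 0 of the 10 genes differed between diets, against 0.0889% of all probes, and Nos2 had an adjusted p of 0.207. The median net signal of the arrays was also lower with the HPD (121.6 to 157.5) than with the NPD (145.5 to 205.4; exact two-sided permutation p = 0.0035), and its part in these results was not tested.

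The genes were next compared with each other across the 14 rats, after the mean of each of the 4 combinations of diet and slide was subtracted. All points of a pair share the array and its centring. For the 45 pairs, p-values came from an exact permutation within those combinations and were adjusted over the pairs. Reg3b and Reg3g varied together, with r = 0.94 (adjusted p = 0.00217) and rho = 0.93 (adjusted p = 0.00217), the exact permutation p of 4.82e-05 being the smallest that the 20736 permutations can give. As measured, with no means subtracted, r was 0.95. Without the 2 rats farthest from the median of Reg3b r was 0.88, and without HPD replicate 1 it was 0.85 (adjusted p = 0.0456 over the 13 rats).

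Nos2 and Duox2 varied in opposite directions, with r = -0.86 (exact permutation p = 0.00183, adjusted p = 0.0412) and rho = -0.82 (exact permutation p = 0.00362, adjusted p = 0.0543). As measured, with diet and slide means left in, r was only -0.36. Leaving out the 2 rats farthest from the median of Nos2 gave r = -0.85, and leaving out HPD replicate 1 gave -0.82 (adjusted p = 0.0879). The rank correlation without that rat was -0.76 and was no longer below the threshold (adjusted p = 0.175). Camp and Slpi had r = -0.64 (exact permutation p = 0.00593, adjusted p = 0.0890) and rho = -0.64 (adjusted p = 0.131). Reg3b and Pla2g2a had rho = -0.75 (exact permutation p = 0.00313, adjusted p = 0.0543) and r = -0.59 (adjusted p = 0.123). Without HPD replicate 1 neither pair was below the threshold. Camp and Slpi then had r = -0.65 (exact permutation, adjusted p = 0.128). Reg3b and Pla2g2a had rho = -0.77 (adjusted p = 0.175) and r = -0.80 (adjusted p = 0.160). Duox2 and Duoxa2, whose products work as a pair, had r = 0.31 (exact permutation p = 0.350).

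**Figure D3:**
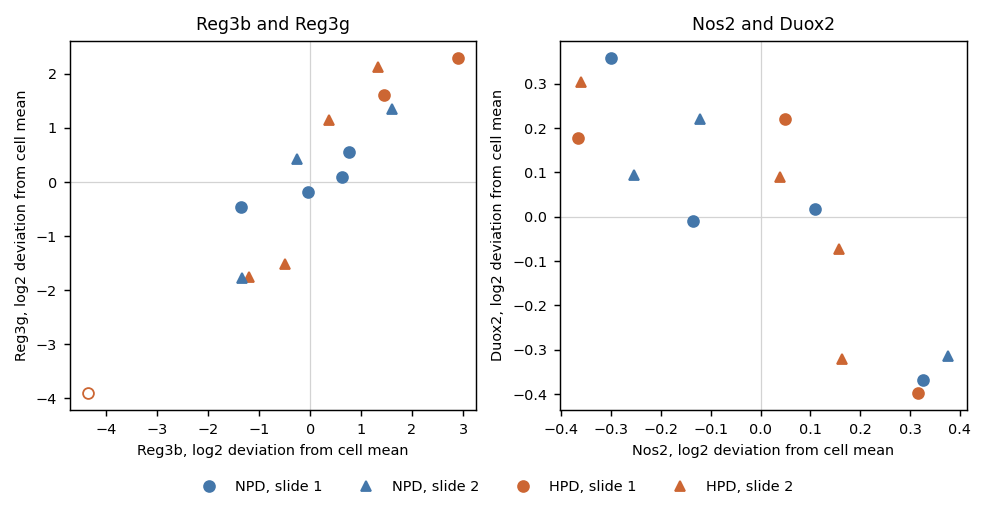
Each point is a rat, with log2 deviations from the mean of its diet and slide for Reg3b against Reg3g (left) and Nos2 against Duox2 (right), diets by colour, slides by symbol, and the open circle for HPD replicate 1, where Reg3b and Reg3g were not well above background. Reg3b and Reg3g lie along a rising line (r = 0.94) and Nos2 and Duox2 along a falling line (r = -0.86).

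Of 13224 gene names well above background on all arrays, those with the highest Pearson's r across the 14 rats, slide means subtracted, were taken for each gene as a description. Differences between diets were left in, and each r is the highest of many, so it was given no p. For Nos2 they included Id4 (r = 0.89) and Uqcrq (r = 0.88), for Slpi Dio1 (r = 0.94) and Padi3 (r = 0.91), and for Camp Echdc2 (r = 0.94) and Rprml (r = 0.91). Pla2g2a was most like Wdfy2 (r = 0.88) and Tspan33 (r = 0.87), Lcn2 most like LOC296884 (r = 0.90) and Cdc25a (r = 0.88), and Duoxa2 most like B4galt4 (r = 0.90). Pigr was close to Ywhab (r = 0.92) and Duox2 to siat7D (r = 0.87), behind transcripts without a symbol. Over the 13 rats without HPD replicate 1, a set chosen after the values were seen, Reg3b was most like S100a4 (r = 0.82) and Reg3g most like Gzmn (r = 0.90).

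Genes around these 10 were taken from lists, 76 genes on the array in all. By limma 0 of 76 were called, against 0.056% of all probes, and 9 had an unadjusted p under 0.05 (3 higher and 6 lower), a share near the 11.4% of all probes. Their median difference was 0.07, against 0.11 for all probes. Of 20 other luminal antimicrobial proteins, 10 were higher and 10 lower, with 1 higher and 2 lower at an unadjusted p under 0.05. Hamp, the iron hormone hepcidin, differed by 0.42 (adjusted p = 0.417) and Mmp7, a protease that activates defensins, by -0.75 (adjusted p = 0.417). Defb1 and Reg3a were not well above background on any array.

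Of the 10 other secreted phospholipases A2, 5 were higher and 5 lower. Pla2g1b, the pancreatic-type enzyme, had a mean of 3.35 ± 0.20 (SD, n = 7) with the NPD and 3.86 ± 0.12 (SD, n = 7) with the HPD. Its groups did not overlap, and the difference was 0.51 ± 0.11 (SE; limma adjusted p = 0.301). It was called without HPD replicate 1 (adjusted p = 0.0976), where 0.497% of all probes were, and under 5 other settings given in the closing part. Pla2g2f differed by -0.81 (limma adjusted p = 0.417) and was well above background on 5 of 7 HPD arrays.

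Among 15 epithelial oxidases, nitric oxide synthases and their partners, 8 were higher and 7 lower, 0 were called and 0 had an unadjusted limma p under 0.05. Lpo, lactoperoxidase, which uses hydrogen peroxide, differed by -0.43 (limma adjusted p = 0.441). The neuronal and endothelial synthases Nos1 and Nos3 and the oxidase Nox4 were not well above background on any array. Of 9 genes for IgA supply and transport, 4 were higher and 5 lower. Fcgrt, the neonatal Fc receptor, is in this list although it carries immunoglobulin G and not IgA. It differed by -0.55 ± 0.19 (SE; limma adjusted p = 0.417). Rab25, which acts in recycling to the luminal membrane, differed by -0.31 ± 0.11 (SE; limma adjusted p = 0.417). Of 22 receptors and signal carriers upstream of such genes, 17 were higher and 5 lower, whereas 64.2% of all probes were higher. Their median difference was 0.15 against 0.11 for all probes. Tnf differed by -0.53 (limma adjusted p = 0.418). Stat3 differed by 0.16 (limma adjusted p = 0.563) and Il22ra1, a chain of the interleukin 22 receptor, by 0.07 (limma adjusted p = 0.882). The cytokines Il22, Il17a, Il17f and Ifng, all counted among the 17 higher, were not well above background on any array.

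**Figure D4:**
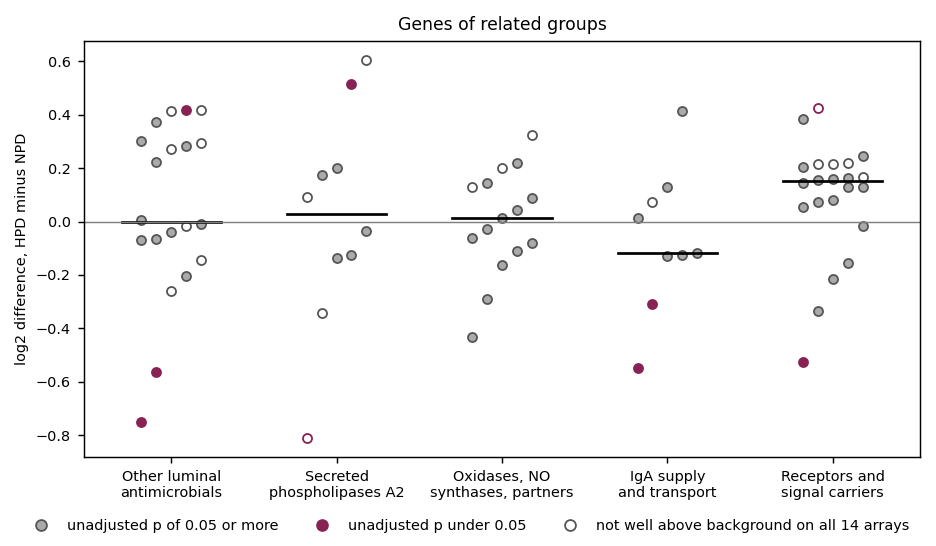
Difference between diets (vertical axis, log2, HPD minus NPD) for genes of 5 related groups, 1 point per gene, purple where the unadjusted limma p was under 0.05 and open where the probe was not well above background on all 14 arrays, with black lines for group medians. The medians lie between -0.12 and 0.15, and 0 genes were called.

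Markers of other cells were summed as signals in multiples of the array median. The 9 neutrophil markers summed to between 3.01 and 6.21 in NPD rats and between 3.74 and 4.63 in HPD rats. Of these 9 markers, 6 were higher and 3 lower, with a median difference of 0.05. Csf3r and Elane were not well above background on any array. Mpo, S100a8 and S100a9 were on all 14, and differed by 0.05, -0.13 and -0.10. Cxcr2 differed by 0.88 (limma adjusted p = 0.417) while well above background on 2 HPD arrays and 0 NPD arrays. The 6 of 8 B and plasma cell markers on the array summed to between 0.434 and 11.4 with the NPD and between 0.447 and 3.60 with the HPD, with Mzb1 and Tnfrsf17 not above background on any array. The 7 of 8 macrophage markers on the array summed to between 21.9 and 40.7 with the NPD and between 16.6 and 49.5 with the HPD. The 3 of 6 Paneth cell markers on the array summed to between 2.21 and 15.7 with the NPD and between 0.951 and 16.5 with the HPD. Among them the α-defensin Defa24 differed by -2.24 ± 1.09 (SE, limma adjusted p = 0.444) and was well above background on 5 of 7 HPD arrays. Mmp7 differed by -0.75 and the α-defensin Defa7 by 0.006. The 7 goblet cell markers summed to between 4551 and 7098 with the NPD and between 3304 and 9587 with the HPD. The part of these cells in the values of the 10 genes was not tested.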

How the data were processed

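Colonocyte RNA from 7 NPD and 7 HPD rats was measured on 1-colour arrays, and diets and replicate numbers were taken from the sample labels. The deposited scanner files, made by the authors with Agilent Feature Extraction 10.7.3.1, hold a linear intensity for each spot, raw and with the background subtracted. A second deposited table, of log2 values normalized by the authors, served only as an alternative. Samples that the authors removed as outliers were not analysed here.

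Control spots and outlier spots were left out, and the background-subtracted signal was log2-transformed, averaged over the spots of a probe and centred on the array median. The effect of diet was fitted in R 4.3.3 by lmFit and eBayes of limma 3.58.1 (Benjamini-Hochberg over 30367 probes without a signal filter, threshold 0.1). The study's methods state log2 values, centring by array, averaging of replicate spots, limma with diet, Benjamini-Hochberg and this threshold. They do not state the removal of outlier spots or whether probes were filtered, and they list centring before averaging. The signal column and centring statistic are not given in the sources used here. Files were read with the R package data.table (version 1.17.8). The fit was tested on simulated data. Exact two-sided permutation tests ran over the 1716 splits of the arrays, and over 1225 regroupings within slides.

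The 10 genes, the lists and the tests were chosen with earlier results of these data known. Besides the 10 genes, those named were the 3 most correlated with each gene where they have a symbol, of which some are given, and up to 2 genes per list with the smallest p. Defa24, Defa7, Stat3, Il22ra1, Clca1, Muc2, Myh11, further neutrophil markers and genes not above background were named after their values were seen. Some items are not reported here. A listed gene is represented by its brightest probe. The number of arrays limits the precision, and each array is 1 rat. Alternatives were other signals, background corrections, centrings and normalizations, a filter on dim probes, slide or replicate number as a block, each slide alone, a threshold of 0.05, the deposited table, and leaving out each array.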

Additional observations from a re-analysis of the deposited data

Results flagged for a closer look

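In 3 of the 24 groups of 7 values examined, the lowest rat stood apart from the others by a gap, as a share of the group's range, above Dixon's 95% critical value. Chance flags about 1 in 20 groups. For Reg3b, HPD replicate 1 was at -4.58 and the nearest other HPD rat at 0.89, a gap of 0.685 of the range, and the difference between diets without it was 0.27. For Pla2g2a, NPD replicate 6 was at 3.50 and the nearest other NPD rat at 5.06, a gap of 0.625 of the range, and the difference without it was -1.02. For Slpi, HPD replicate 7 was at -1.58 and the nearest other HPD rat at 0.90, a gap of 0.571 of the range, and the difference without it was -0.36. The rat lowest for Pla2g2a among the NPD rats, replicate 6, was the highest of all 14 for Reg3b (5.63) and Reg3g (6.12).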

How the results depend on the processing

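Over 320 recomputed differences of the 10 genes, 303 kept their direction and side of the threshold, 15 reversed and 2 passed the threshold. With diet alone, Reg3b ran from -1.18 to 0.27 when an array was left out, 0.27 without HPD replicate 1. Duox2 was -0.030 under normexp, -0.027 with slide as a block after quantile normalization, -0.038 with slide as a block after cyclic loess, -0.020 on slide 1 alone, -0.027 in the deposited table and -0.11 in it after slide was added. Camp was 0.00055 with centring on the 75th percentile, 0.039 after quantile normalization, 0.024 after cyclic loess, 0.14 on slide 2 alone, 0.043 without HPD replicate 2, 0.09 without NPD replicate 3, 0.12 without HPD replicate 3 and 0.08 without NPD replicate 6. The 2 that passed were Nos2 under normexp and with slide added to the fit of the deposited table, the 1 member called under each.

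Of all probes, 17 were called as reported, 5142 under normexp, 27 with slide as a block, 71 with slide as a block after quantile normalization, 40 with it after cyclic loess, 1 on slide 1 alone, 0 on slide 2 alone, 2767 in the deposited table after slide was added, and 9 to 151 when an array was left out, 151 without HPD replicate 1. Of the 76 listed genes, 14 were called under normexp, where 16.9% of all probes were. In the deposited table after slide was added 8 were called, against 10.5% of its rows, and 0 to 1 with an array left out. Some of those called as higher were not well above background on any array. They were Reg3a, Defb1, Nos1, Il17a, Il17f and Il22 under normexp, and Nos1, Il17f and Il22 in the deposited table. Pla2g1b alone was called after quantile normalization (1 gene), in both fits with slide as a block after normalization (1 gene each) and without HPD replicate 1, and it was among those called under normexp and with slide added to the deposited table. With the genes most like each member taken as measured, 11 of 24 names were shared. The cause of these changes was not tested. The replicate numbers were not taken to pair the rats, since the labels give no shared source and the correlation of same-numbered rats was not over 0.1 for every number (0.14 to 0.39 for 6 numbers, -0.09 for number 4). Number 4 was also the only number whose NPD and HPD rats lay on different slides, so slide and number cannot be told apart there. As a hint from the data, 5 of 14 rats correlated best with their own number. With replicate number as a block, 8 probes were called and 0 of the 10 genes. The mean of all probes of a gene was not run, since each of the 10 genes has 1 probe. The low signals of Reg3b and Reg3g in HPD replicate 1 limit both genes.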

Other observations

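The goblet cell markers differed in both directions. Spink4 was 4.57 ± 1.01 (SD, n = 7) with the NPD and 6.40 ± 0.70 (SD, n = 7) with the HPD (limma adjusted p = 0.417). Agr2 differed by -0.63 (limma adjusted p = 0.417), Clca1 by -0.56 (limma adjusted p = 0.429) and Muc2, by the brightest of its 3 probes, by 0.013 (limma adjusted p = 0.980). In the deposited table with slide added, where 10.5% of rows were called, Spink4 (1.61, limma adjusted p = 0.0486) and Agr2 (-0.66, limma adjusted p = 0.0580) were called. Clca1 (-0.64, limma adjusted p = 0.127) and Muc2 (0.35, limma adjusted p = 0.108) were not. Of the 7 stroma and muscle markers, 3 were higher and 4 lower, with a median difference of -0.08. Among them Col1a1 differed by 0.35 and Col3a1, well above background on 1 of 14 arrays, by 0.61 (limma adjusted p = 0.417 for each), while Myh11 differed by -0.48 (limma adjusted p = 0.419). None of these goblet, stroma and muscle markers was called in the fit used for the main results.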
